A study of Mus musculus with 2 samples.

Results

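The SLAM and CD2 receptor family and its adaptor SAP were compared between gamma/delta and CD8+ alpha/beta T cells. The 9 genes were Cd2, Cd48, Cd84, Cd244, Slamf1, Slamf6, Slamf7, Ly9 and Sh2d1a, out of 18193 genes named on the array. They were chosen by family, with earlier results of these data known. Every probe set that the platform annotation gives to 1 of them alone was taken, which made 15 probe sets, and Cd244 was found under its current symbol Cd244a. The gamma/delta sample is labelled as naive and CD44-negative, and the alpha/beta sample as naive and CD8-positive. Both came from C57BL/6 lymph nodes by negative selection, and the labels name no treatment, transgene, deletion or age. Each group was 1 preparation on 1 Affymetrix MOE430 2.0 array, with the number of mice behind it not stated in the labels.

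SLAM family receptors are immunoglobulin-like surface proteins of haematopoietic cells. Most bind their own kind on a neighbouring cell, while CD48, a lipid-anchored protein, is the ligand of both CD2 and CD244. The tails of most of the receptors carry a tyrosine motif that binds SAP, the small SH2 protein encoded by Sh2d1a, which brings in the kinase Fyn. Where SAP is missing, phosphatases can bind the same motifs. SAP and SLAM receptors are known for the thymic development of innate-like T cells such as NKT cells, for help to B cells and for killing by NK cells.

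Signals are the authors' MAS5 intensities, linear and in scaled units. The floor was the higher of the medians of both arrays, a signal of 243.3, and weaker signals were raised to it before a ratio was taken. A probe set under the floor on 1 array therefore gives only a bound ("at least N-fold"), and one under it on both arrays gives no ratio. A difference was called at 2-fold, a log2 ratio (gamma/delta over alpha/beta) of 1 or more in either direction. Neither group has a replicate, so there is no SD and no p-value across samples, and a called difference is one between these preparations. What spread can be seen is that among probe sets of one gene, which had a pooled SD of 0.50 on the log2 scale over 3317 genes. The medians of the arrays were 243.3 and 242.1. The 3′ to 5′ signal ratio of actin, which is higher in degraded RNA, was 6.99 on the gamma/delta and 3.12 on the alpha/beta array. That of Gapdh was 3.06 and 3.24, and that of the transferrin receptor 3.97 and 4.47.

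The labelled cell types were checked first. Cd3e and Cd3d, chains of the T cell receptor complex, were far above the floor on both arrays, with 59573 and 13550 on the gamma/delta array and 34224 and 13862 on the other. Of the chains of the CD8 coreceptor, Cd8a read 731.1 in gamma/delta against 8852 in alpha/beta cells. Cd8b1 read 382.3 and 2193, or 5.74-fold towards alpha/beta cells. Both arrays read Cd4 under the floor. Each preparation thus carried T cell transcripts. The Cd8a and Cd8b1 signals were higher in the preparation labelled CD8-positive, though above the floor in both. The gamma/delta label does not mention CD8. Cd44, which the gamma/delta label gives as negative, read 524.9 in gamma/delta against 421 in alpha/beta cells, above the floor on both arrays, and its other probe sets had log2 ratios of -0.85 and 0.97. The constant region genes of the T cell receptor had no probe set with 1 symbol in the annotation and were not analysed here. Of 7 measured T cell markers 3 were called higher in gamma/delta cells, Cd3g (2.31-fold), Lat (2.35-fold) and Thy1 (2.15-fold), beside 5.82% of all genes. The 7, which include Cd2 of the family, had a summed signal of 98258 against 62470, of which Cd3e made up 59573 and 34224. The part of this shift in the values below was not tested.

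Transcripts of the family were present in both preparations, and most of them differed little. All 9 genes were above the floor in gamma/delta cells by the probe set that stands for the gene (the one with the highest mean log2 signal), and all but Slamf7 were above it in alpha/beta cells. The receptor Slamf7 was the only called gene, with a gamma/delta signal at least 2.14-fold higher, and 0 of the 9 were called lower. Of the 11914 genes on the arrays that had a ratio, 5.82% passed 2-fold towards gamma/delta and 3.93% towards alpha/beta. Counted by probe set, 1 of 13 from the family was called higher and 0 lower, against 4.68% and 3.99% of all probe sets with a ratio. With so few genes, 1 call of 9 does not set the family apart from this background. The median log2 ratio of the 9 genes was 0.09, against 0.03 for all genes, and ratios lay on both sides of 0. Of the 9, 6 had log2 ratios between -0.16 and 0.32, and the other 3, Slamf7, Ly9 and Slamf6, lay outside the pooled SD between probe sets. That SD is no measure of variation between preparations. Over all genes with a ratio, the 5th and 95th percentiles were -0.92 and 1.05, and Ly9 and Slamf6 lay between them.

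**Figure D1:**
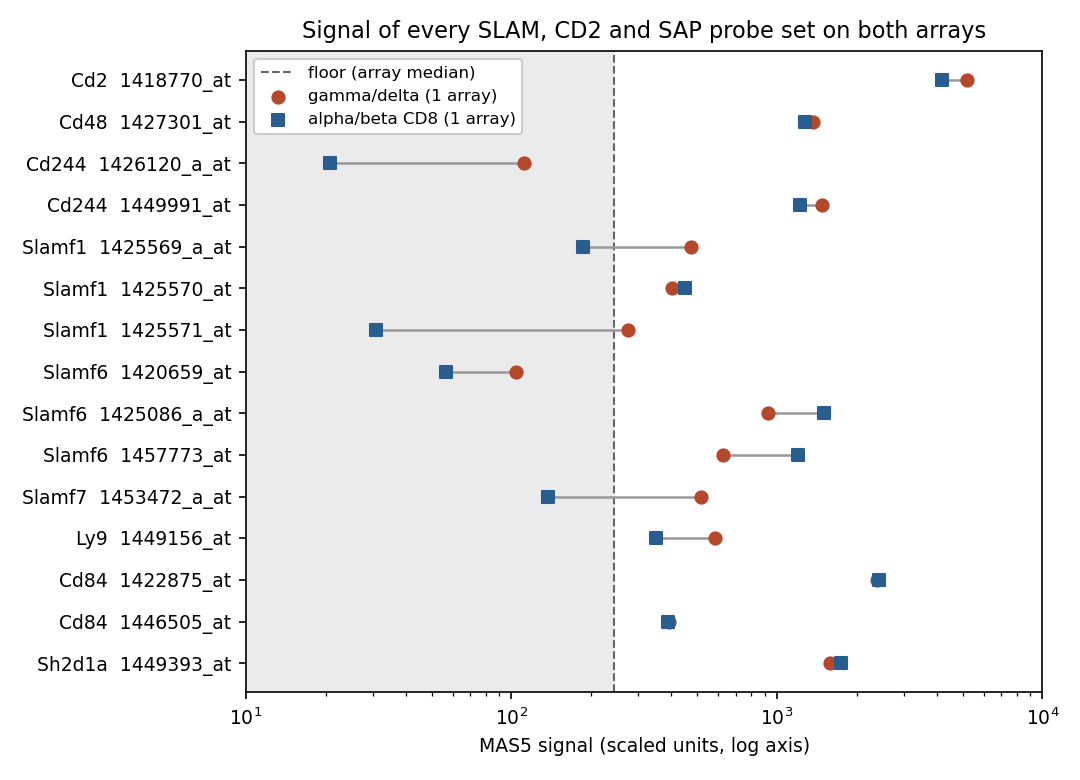
MAS5 signal (scaled units, log axis) of all 15 probe sets of the family on the gamma/delta array (circles) and the alpha/beta CD8 array (squares), 1 array each, with the floor of 243.3 as a dashed line and the range under it shaded. Most circles and squares lie close together to the right of the floor, while Slamf7 and 2 of the 3 probe sets of Slamf1 cross it, with the square to the left.

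The ligand Cd48 and its receptors were measured at similar signals in both cell types. The single probe set of Cd48 read 1361 in gamma/delta against 1278 in alpha/beta cells, a log2 ratio of 0.09. Cd2, the adhesion receptor of T and NK cells that strengthens contact with antigen-presenting cells, read 5203 and 4170, a log2 ratio of 0.32. Both were well above the floor on both arrays, and both ratios lay inside the pooled SD between probe sets. Cd244, also called 2B4, is a CD48 receptor best known from NK cells and from effector CD8+ T cells. Its probe set 1449991_at read 1475 in gamma/delta against 1216 in alpha/beta cells, a log2 ratio of 0.28. Its other probe set, 1426120_a_at, read 111.3 and 20.67, under the floor on both arrays, so that it gave no ratio. The transcript was thus read above the floor by 1 of 2 probe sets in cells labelled as naive.

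Cd84 was the receptor with the closest values. Its product binds itself and is found on B cells, T cells, platelets and myeloid cells. Probe set 1422875_at read 2371 in gamma/delta against 2414 in alpha/beta cells, a log2 ratio of -0.03, and 1446505_at read 393.4 and 388.3, a log2 ratio of 0.02. Both probe sets, with signals far apart, thus gave ratios near 0. The adaptor Sh2d1a was alike in this, its single probe set reading 1586 in gamma/delta against 1737 in alpha/beta cells, a log2 ratio of -0.13. Its signal was above the floor on both arrays, so SAP transcript was measured in both preparations at levels that differed by less than the pooled SD.

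Slamf7, also called CRACC or CS1, is a self-binding receptor best known from NK cells, plasma cells and activated lymphocytes, and in NK cells signals without SAP through the related adaptor EAT-2. Its 1 probe set, 1453472_a_at, read 519.6 in gamma/delta against 137.2 in alpha/beta cells. The alpha/beta signal lay under the floor, so the difference is a bound of at least 2.14-fold, a log2 ratio of at least 1.09. The call depends on the floor: when this was set to the 70th percentile of the arrays, a signal of 447.2, the bound was a log2 ratio of 0.22 and the call was lost. The suffix _a_at marks a probe set that matches several transcripts of one gene, and Slamf7 had no value once probe sets with the suffixes _x_at, _s_at and _a_at were left out.

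Ly9, also called CD229, is a self-binding receptor of T and B cells and is strongly expressed on innate-like T cells. Its single probe set read 581.9 in gamma/delta against 351.4 in alpha/beta cells, a ratio of 1.66-fold and a log2 ratio of 0.73. The value lay beyond the pooled SD between probe sets and short of the 2-fold call. At the 70th percentile floor it was 0.38, because the alpha/beta signal then lay under the floor.

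Slamf6, also called Ly108, was the gene with the lowest ratio. Its product binds itself, is found on T and B cells and takes part with Slamf1 in the selection of NKT cells. Probe set 1425086_a_at read 928.2 in gamma/delta against 1500 in alpha/beta cells, a log2 ratio of -0.69. Probe set 1457773_at read 623.5 and 1199, a log2 ratio of -0.94, or 1.92-fold towards alpha/beta cells. The remaining probe set, 1420659_at, read 104 and 56.91, under the floor on both arrays. Both probe sets above the floor thus had higher alpha/beta signals, by more than the pooled SD, and neither reached 2-fold.

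Slamf1, also called CD150 or SLAM, is the receptor after which the family is named, and binds itself. Its 3 probe sets, which the annotation assigns to the same sequence record, disagreed. Probe set 1425570_at, which stands for the gene, read 402.8 in gamma/delta against 449.6 in alpha/beta cells, a log2 ratio of -0.16. Probe set 1425569_a_at read 475.4 and 186.5, a bound of at least 1.95-fold towards gamma/delta cells, and 1425571_at read 273.6 and 31.01, a bound of at least 1.12-fold. In alpha/beta cells 1 probe set was thus above the floor and 2 were under it, while in gamma/delta cells all 3 were above it. Under a lower floor, the 30th percentile at a signal of 129.6, the log2 ratios of the last 2 were 1.35 and at least 1.08. With probe sets averaged the gene's log2 ratio was at least 0.62 in place of -0.16, as the averaged alpha/beta signal lay under the floor. No direction can thus be given for Slamf1.

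**Figure D2:**
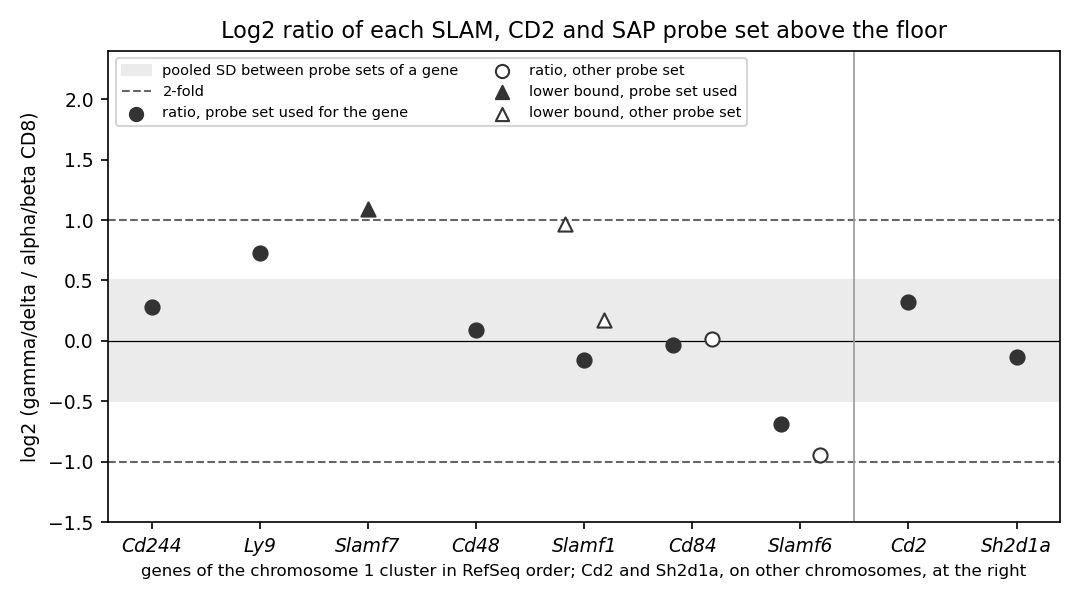
Log2 ratio (gamma/delta over alpha/beta CD8) (y axis) for the 13 probe sets of the family above the floor on at least 1 array, with the 7 genes of the chromosome 1 cluster in RefSeq order and Cd2 and Sh2d1a at the right. Circles are ratios and triangles lower bounds, filled symbols are the probe set used for the gene, the dashed lines mark 2-fold and the shaded band the pooled SD of 0.50. Slamf7 alone lies past a dashed line, Slamf6 lies below the band with both probe sets, and the 3 symbols of Slamf1 are spread from -0.16 to 0.97.

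Of the 9 genes, 7 lie side by side on chromosome 1 in the RefSeq annotation of GRCm38.p6, in the order Cd244, Ly9, Slamf7, Cd48, Slamf1, Cd84 and Slamf6, with 1 other protein-coding gene, Tma7-ps, between Cd48 and Slamf1. Cd2 is on chromosome 3 and Sh2d1a on chromosome X. The genes of the cluster did not differ in 1 direction. In this order the log2 ratios were 0.28, 0.73, at least 1.09, 0.09, -0.16, -0.03 and -0.69, of which that of Slamf1 (-0.16) has no settled direction and that of Cd84 (-0.03) was 0.02 after loess between the arrays. The highest and the lowest ratio of the family thus both came from this cluster.

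The promoter sequences of Slamf7, with the highest ratio, and Slamf6, with the lowest, are shown because they precede the start sites of the genes at the extremes. They are the 250 bases before the start that RefSeq annotates in GRCm38.p6, at chr1:171649000-171649249 on the minus strand for Slamf7 and chr1:171917212-171917461 on the plus strand for Slamf6. The annotated Slamf7 gene reaches further upstream than this start, so it has other starts too. Capitals mark matches to any of 7 motifs searched on both strands. These were the RUNX motif TGTGGT, the ETS motif AGGAAG, the TCF/LEF motif CTTTGA, the GATA motif AGATAA, the E box CAGCTG, the T box motif TCACAC and the ROR motif AGGTCA.
Slamf7: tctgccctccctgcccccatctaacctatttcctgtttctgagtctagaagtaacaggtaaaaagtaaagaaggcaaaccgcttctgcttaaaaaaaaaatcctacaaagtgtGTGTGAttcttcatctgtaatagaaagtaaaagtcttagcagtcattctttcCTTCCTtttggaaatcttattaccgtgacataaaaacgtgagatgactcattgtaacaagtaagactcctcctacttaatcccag
Slamf6: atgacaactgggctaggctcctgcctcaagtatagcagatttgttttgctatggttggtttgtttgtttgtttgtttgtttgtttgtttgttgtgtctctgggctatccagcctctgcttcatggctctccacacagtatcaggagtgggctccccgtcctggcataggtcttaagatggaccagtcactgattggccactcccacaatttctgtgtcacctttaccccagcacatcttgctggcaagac
The Slamf7 sequence held 1 T box match, reaching from 137 bases before the start, and 1 ETS match, from 85 bases before it, both on the other strand, and no 2 matches overlapped. The Slamf6 sequence held none of the 7. Promoter windows of 6 of the 9 genes were in the table used, and 3 of these, Cd48, Slamf1 and Slamf7, held the T box motif, which 12.3% of all 32851 promoter windows of this length hold. The ETS motif was in 2 of the 6, Slamf1 and Slamf7, and in 29.5% of all windows. The RUNX motif was in 2, Cd48 and Cd84, and in 14% of all windows. The TCF/LEF motif was in 1 (13.8% of all windows) and the ROR motif in 1 (14%). The GATA motif and the E box were in 0 (9.99% and 13%). A match is a run of letters and no measured binding, and no match says only that these letters are not in the window.

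**Figure D3:**
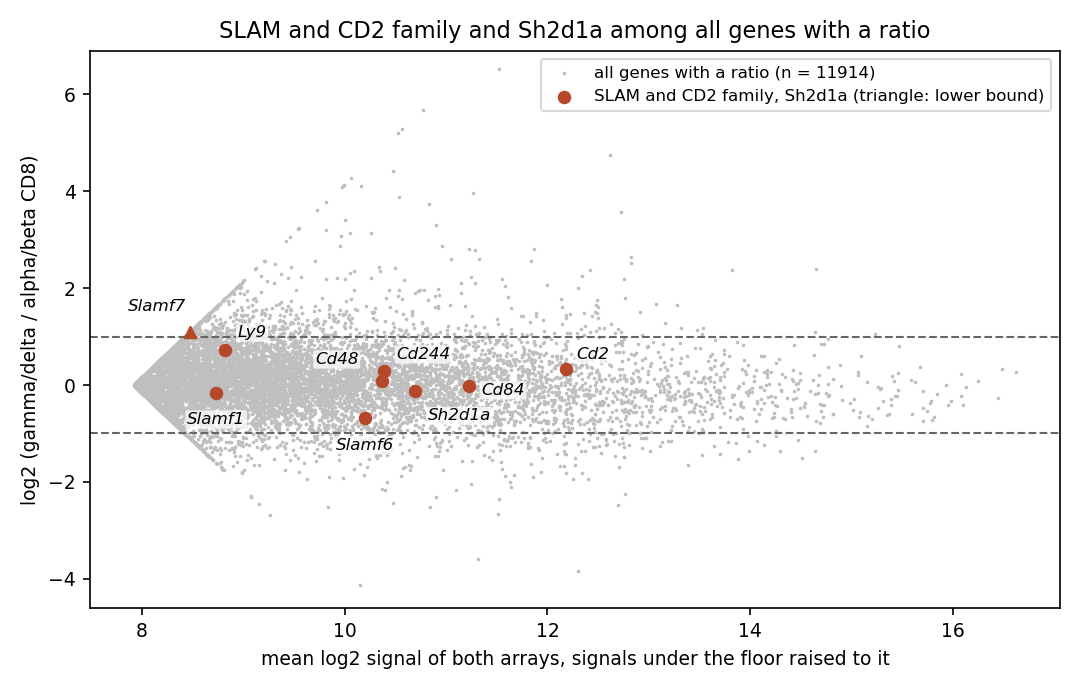
Log2 ratio (gamma/delta over alpha/beta CD8) (y axis) against the mean log2 signal of both arrays after the floor (x axis) for all 11914 genes with a ratio (grey), with the 9 genes of the family in colour and the 2-fold lines dashed. The triangle of Slamf7 sits on the left edge of the cloud, where 1 array is at the floor, and the other 8 genes lie between the dashed lines.

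The other receptors of the family had low signals. Slamf8, a receptor of myeloid cells, read 260.8 in gamma/delta against 266.9 in alpha/beta cells. Slamf9 read 315.6 and 149.7, a bound of at least 1.30-fold towards gamma/delta cells, as the alpha/beta signal lay under the floor. Neither was called, though a bound does not show that Slamf9 differed by less than 2-fold. The adaptors related to SAP, Sh2d1b1 and Sh2d1b2, had no probe set of their own in the annotation and were not analysed here.

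Among 17 listed partners of SLAM and SAP signalling, 14 had a probe set and 13 a ratio. The median log2 ratio was 0.18, and 1 gene was called higher in gamma/delta cells and none lower, a share near the 5.82% and 3.93% of all genes. The called gene was Ptpn6, which encodes SHP-1, a phosphatase that can bind SLAM receptor tails in place of SAP. It read 878.5 in gamma/delta against 288.4 in alpha/beta cells, a ratio of 3.05-fold. The call was lost at the 70th percentile floor (a bound of 0.97 on the log2 scale) and with probe sets averaged (0.80). Ptpn6 had no other probe set above the floor, so this average takes in signals under it. Fyn, the kinase that SAP recruits, read 6342 and 8660, a log2 ratio of -0.45. Prkcq and Bcl10 act downstream of SAP and Fyn towards NF-kB in T cells. Prkcq had a log2 ratio of 0.17, and Bcl10 one of -0.87. Other probe sets of Bcl10 with a ratio gave -1.30 and -1.04, past 2-fold towards alpha/beta cells, and -0.23. Dok2, an adaptor of inhibitory signalling, read 472.9 in gamma/delta against 178.1 in alpha/beta cells, a bound of at least 1.94-fold. The bound was short of the call but sets no upper limit, as the alpha/beta signal lay under the floor. The lipid phosphatase Inpp5d (SHIP-1) and the phosphatase Ptpn11 (SHP-2), other binding partners of SLAM tails, had log2 ratios of 0.20 and -0.28. Zbtb16, which encodes PLZF, the factor of innate-like T cells, was at the floor with 245.7 against 194.6.

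The next list holds genes for proteins that work at the CD2 tail and in the contact zone of T cells. Of 13 listed, 12 had a ratio, with a median log2 ratio of 0.46, and 4 were called higher in gamma/delta cells and none lower, beside 5.82% and 3.93% of all genes. Pstpip1, an adaptor that binds the CD2 tail, read 984.6 in gamma/delta against 352.3 in alpha/beta cells, a ratio of 2.79-fold. Was, the actin regulator that Pstpip1 links to CD2, read 595.7 and 229.7, at least 2.45-fold, and lost its call at the 70th percentile floor (a log2 ratio of 0.41). Capzb, the beta subunit of the actin capping protein, read 3410 and 1096, a ratio of 3.11-fold, though its other probe sets with a ratio gave log2 ratios of 0.43 and 0.49, and with all its probe sets averaged the call was lost at 0.77. Lat, the adaptor downstream of the T cell receptor, read 3594 and 1528, a ratio of 2.35-fold. Among the other genes of the list, Cd2ap had a log2 ratio of 0.23, with other probe sets at -0.61 and -0.08. Cd2bp2 had one of -0.11, with others at -0.32 and -0.22, and Sh3kbp1 one of 0.59, with others at 0.33, 0.42 and 1.02. Signals of Cd2 itself thus stood 1.25-fold apart while those of Pstpip1 stood 2.79-fold apart.

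Of 16 genes of other adhesion pairs of T cells, 13 had a ratio, with a median log2 ratio of 0.17. Here 4 were called higher in gamma/delta cells and 1 was called lower, beside 5.82% and 3.93% of all genes. Itgal and Itgb2, the chains of the integrin LFA-1 that acts beside CD2 in cell contact, were 2.71-fold and 2.31-fold higher in gamma/delta cells. Of the ligands of LFA-1, Icam2 was 2.18-fold higher in gamma/delta cells, at 841.3 to 385.3, and Icam1 2.23-fold higher in alpha/beta cells (1331 against 2965). Cd96, a receptor of nectin-like ligands, was 2.17-fold higher in gamma/delta cells, at 2654 to 1221. With probe sets averaged, Itgal had a log2 ratio of -0.31; it had no other probe set above the floor, so this average takes in signals under it. Icam2 lost its call at the 70th percentile floor, with 0.91.

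**Figure D4:**
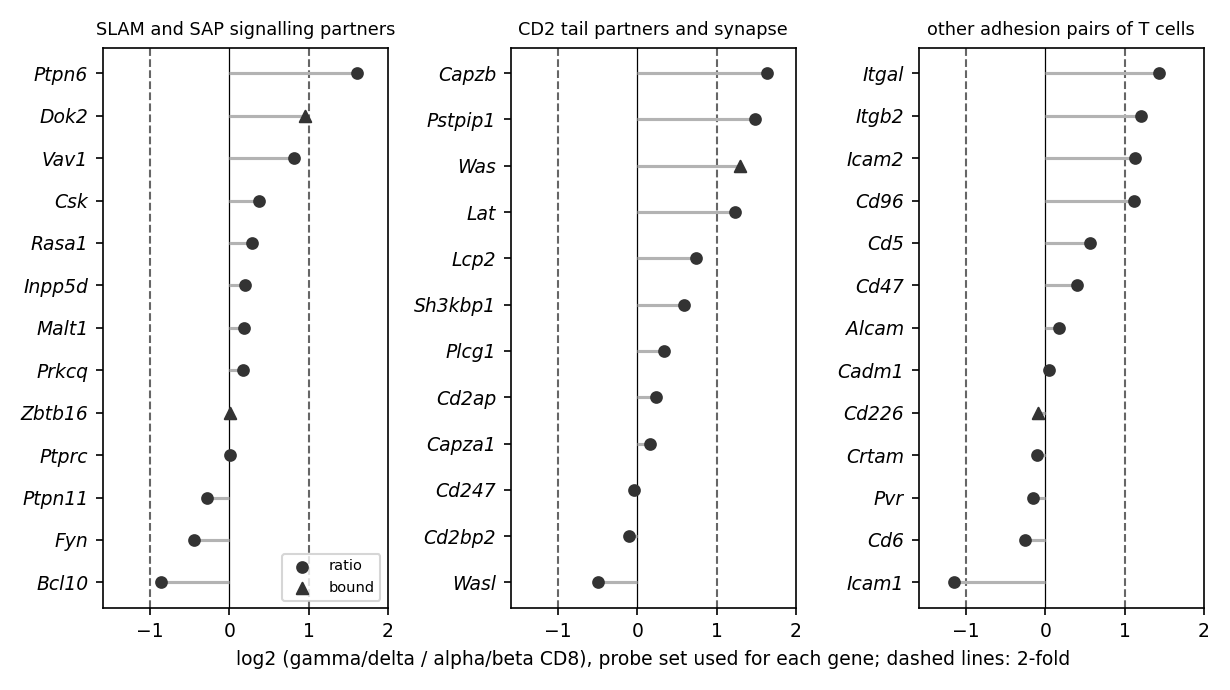
Log2 ratio (gamma/delta over alpha/beta CD8) (x axis) of the listed genes with a ratio, 13 SLAM and SAP signalling partners, 12 genes of the CD2 tail and contact zone and 13 of other adhesion pairs, 1 symbol per gene; triangles are bounds and dashed lines mark 2-fold. Right of the right-hand line lie 1, 4 and 4 genes, and left of the left-hand line Icam1 alone.

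SLAM receptors are also expressed by B cells, NK cells, myeloid cells and platelets, so the markers of these cells are given beside the values of Slamf7, Ly9 and Slamf1. In bulk RNA, fewer cells of a type and less RNA per cell cannot be told apart. None of the markers of these cell types was called. Of 8 measured NK cell markers 2 were above the floor on each array, with summed signals of 1210 in gamma/delta against 1263 in alpha/beta cells, and the defining genes Ncr1 and Tyrobp were under it on both arrays. Of 11 B cell markers 7 were above the floor in gamma/delta against 5 in alpha/beta cells, with sums of 6356 and 5250, of which Ebf1 made up 3331 and 2650. Cd79a was under the floor on both arrays and Ms4a1 read 858.2 and 616. Of 12 myeloid and dendritic cell markers 2 and 3 were above the floor, with sums of 4283 and 2994, of which Cst3 made up 2787 and 1691. Lyz2 and Itgax were under the floor on both arrays, as were all 4 measured markers of erythroid cells and platelets. The part of such cells in the values of the SLAM genes was not tested.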

How the data were processed

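RNA of 1 gamma/delta and 1 alpha/beta CD8 T cell preparation was measured on 1 array each. The deposited values are linear signal intensities per probe set, made by the authors with the MAS5 method. The submitters' processing notes name Affymetrix Expression Console 1.0. The mean signal after trimming 2% of probe sets at either end was 500.0 on both arrays, so they had been scaled to one target. MAS5 spreads weak signals widely, which is why a floor was used.

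There were 45101 probe sets, including 64 controls. A platform annotation gave 1 symbol to 34945 that are not controls and several to 932, and did not list 9211. Gene IDs of 34741 were found in a RefSeq table of GRCm38.p6, and 0 symbols changed. Probe sets with several symbols or none named no gene. Promoter sequences are RefSeq's. Values were used as deposited, in Python 3.11.15, numpy 2.4.6 and pandas 2.3.3. The ratio and call steps were checked on simulated data. The planted changes were well past 2-fold and on strong signals only, so finding changes near the floor or near 2-fold was not checked.

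All probe sets of the 9 genes are reported. Of the listed genes, those past 2-fold are named, or the largest 2 ratios where none is. Fyn, Prkcq, Bcl10, Dok2, Inpp5d, Ptpn11, Zbtb16, Cd2ap, Cd2bp2 and Sh3kbp1 were added after their values were seen. The 9 genes, the lists and the motifs were chosen with earlier results of these data known. The alternatives were median scaling, quantile normalization, loess, floors at the 30th and 70th percentile or none, averaged probe sets, and leaving out probe sets with the suffixes _x_at, _s_at and _a_at. Precision is limited by the number of arrays, 1 per group.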

Additional observations from a re-analysis of the deposited data

How the results depend on the processing

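Under median scaling, quantile normalization and loess between the arrays, all 9 genes of the family kept their side of the 2-fold call, and all kept their direction but Cd84, which had a log2 ratio of 0.02 after loess. The log2 ratio of Slamf7 was 1.92 both at the 30th percentile floor and with no floor, and 0.22 at the 70th percentile floor, where 0 of the 9 genes were called higher. When probe sets with the suffixes _x_at, _s_at and _a_at were left out, Slamf7 had none left and 0 genes were called higher. With probe sets averaged Slamf1 had a log2 ratio of 0.62, and Itgal, among the adhesion genes, one of -0.31 in place of 1.44. The log2 ratio of Slamf6 ran from -0.94 to -0.26 over the 8 alternatives, that of Ly9 from 0.38 to 0.73 and that of Cd244 from 0.25 to 0.74. The value of 0.74 is a bound, from an average that takes in the Cd244 probe set under the floor on both arrays. The -0.26 of Slamf6 likewise comes from averaged probe sets, which take in its probe set under the floor on both arrays. Cd2 ran from 0.31 to 0.42, Cd48 from 0.06 to 0.09, Cd84 from -0.03 to 0.02 and Sh2d1a from -0.14 to -0.11. The listed partner genes called higher numbered 6 to 11 over the alternatives, against 9 as reported, and those called lower 1 in each. Over all genes, 693 were called higher and 468 lower as reported. These counts were 1320 and 1008 at the 30th percentile floor, 396 and 284 at the 70th, 2917 and 2593 with no floor, and 459 and 322 with probe sets averaged. No paired analysis was possible because each group has 1 sample. Signals near the floor, as for Slamf7, Slamf1 and Ly9, set what these arrays can show.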
